A study of Mus musculus with 8 samples.

Results

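Macrophages lacking Cullin 3 were compared with wild-type macrophages after both had been exposed to lipopolysaccharide (LPS) for 6 hours. The comparison holds the 4 samples whose titles give KO or WT with 6 hours of LPS, 2 of each genotype, out of 8 samples in the series. The other 4 are untreated cells of the same 2 genotypes, also 2 of each. All 8 are labelled bone marrow-derived macrophages (BMM) of female mice aged 6 to 8 weeks, with the genotype given as Cullin 3 wildtype or Cullin 3 knockout. Marrow cells had grown for 6 days with L929-conditioned medium, which supplies the macrophage growth factor CSF1, and 0.5 µg of RNA per sample was labelled with the dye Cy3 and hybridised to a 1-colour Agilent array. The series was described as run in duplicate on a single occasion. The labels do not give the deleted part of Cul3, any Cre line, the strain, the LPS dose or the number of mice, and they do not say whether replicates came from different animals or cultures. The p-values therefore reflect the spread between these samples alone, and that spread may be technical.

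Cullin 3 (Cul3) builds ubiquitin ligases in which BTB-domain proteins pick the substrate to be degraded. Its best known adaptor, KEAP1, holds down the transcription factor NRF2 (gene Nfe2l2), which drives genes of glutathione synthesis, detoxification, NADPH supply and iron handling through antioxidant response elements. LPS, from the outer membrane of Gram-negative bacteria, activates Toll-like receptor 4. Signalling through MyD88 and NF-kappaB then induces cytokines and chemokines, while signalling through TRIF (Ticam1) and IRF factors induces interferon beta, which acts back on the cells to raise interferon-stimulated genes.

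Levels below are log2 processed signals relative to the 75th percentile of their array, so 0 is the level of that percentile, and a difference of 1 is a doubling. Unless untreated cells are named, WT and KO refer to LPS-treated cells, with the values of replicates 1 and 2 in that order. The 75th percentile of signal was 629 and 553 on the WT arrays and 769 and 728 on the KO arrays, and 60.9% to 69.5% of spots passed the scanner's test for signal above background. The 2 arrays of a group correlated at 0.992 (WT) and 0.994 (KO) over genes, and genes are not independent of each other. KO LPS replicate 2 had 974 outlier-flagged spots against 180 to 325 on the other 3, and 382 of the tested genes lacked a value on at least 1 LPS array and were fitted on the rest. The slide held WT arrays in 1 row and KO arrays in the other, and genotype and slide row cannot be told apart. All 12 macrophage markers, including Csf1r, Adgre1 (F4/80) and Lyz2, were well above background on all 4 arrays. Of 18 neutrophil markers 12 were called higher in KO cells, and of 10 dendritic cell markers 5 were called lower, with values given after the gene groups.

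Cul3 itself was measured by 1 probe (chromosome 1, 80268109 to 80268168, mm9), at 2.69 and 2.72 in WT and 2.22 and 2.15 in KO cells. Both KO values were below both WT values, and Cul3 fell by 0.52 ± 0.11 (SE, n = 2 per group, limma adjusted p = 0.0306). In untreated cells the difference was -0.46 (adjusted p = 0.0909). Whether the probe lies in the deleted part of the gene is not given, so this signal says nothing of how much functional Cul3 remained. The call was lost without any 1 of the 8 arrays (adjusted p 0.0526 to 0.141), in the fit of the 4 LPS arrays alone (0.136) and with the authors' deposited values (0.578), where the difference was -0.17.

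Across the genome, 4592 of 27970 genes tested (16.4%) differed between KO and WT cells at a limma adjusted p under 0.05, the threshold for every call below. Of these, 2202 were higher in KO cells (7.87% of genes tested) and 2390 lower (8.54%). The counts of called members in the gene lists below are to be read beside these shares. Most differences were modest, with a median size of 0.93 among called genes. Differences over 1 were called upwards for 941 genes and downwards for 1058, and differences over 2 for 178 and 161. The groups did not overlap for 56.8% of all genes tested, so groups that do not overlap are no call by themselves. Called falls lay more often among highly expressed genes: with genes split by mean level into 4 bins of equal size, 5.55% were called higher and 13.1% lower in the top bin, against 13.6% and 10.4% in the bin beneath it. Leaving out an array lowered the count, to 1760 for KO LPS replicate 1, 1495 for KO LPS replicate 2 and 2718 for either untreated KO replicate, which enters through the shared estimate of the spread. Fitted on the 4 LPS arrays alone it was 792, of which 756 were called in the same direction in the fit of 8. The balance of rises and falls depended on the values used, at 3685 and 748 with the authors' deposited values as given, 3821 and 1047 with those values scaled to their 75th percentile, and 2297 and 3791 with normexp background correction. In the paragraphs that follow, not called with another scaling means that at least 1 other scaling ended the call, not necessarily every one. Those scalings were quantile normalisation, centring on the median and a 75th percentile taken over detected probes. The authors' deposited values as given were not scaled between arrays. A difference in them therefore includes any difference in signal level between whole arrays.

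**Figure D1:**
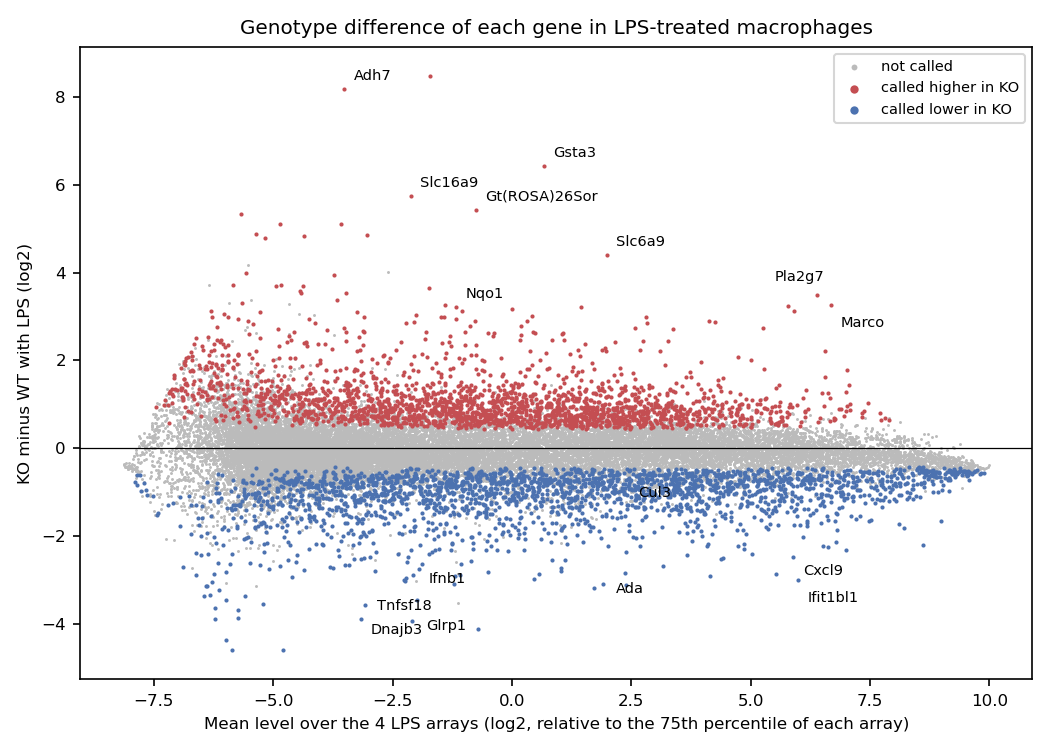
Difference between KO and WT cells with LPS (log2, vertical) against the mean level over the 4 LPS arrays (log2 relative to the 75th percentile, horizontal), 1 point per gene tested. Red points are the 2202 genes called higher in KO cells and blue points the 2390 called lower, and labelled genes such as Gsta3 (6.43) and Glrp1 (-3.94) lie far from 0.

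Many genes of glutathione metabolism were higher in KO cells. Of 29 members tested, 18 rose and 3 fell, with a median difference of 0.90 against -0.08 over all genes tested. The rises covered each step of the pathway: cystine import, synthesis, conjugation and export. Slc7a11, the cystine importer that supplies cysteine for glutathione, was at 2.35 and 2.17 in WT and 4.30 and 3.99 in KO cells, a rise of 1.89 ± 0.17 (SE, adjusted p = 0.00240). Gclc, the catalytic subunit of glutamate-cysteine ligase, the rate-limiting enzyme of glutathione synthesis, was at 1.59 and 1.46 in WT and 3.87 and 4.05 in KO cells and rose by 2.44 ± 0.13 (adjusted p = 0.000951). Gclm, the modifier subunit of that ligase, was at 1.51 and 1.29 in WT and 4.20 and 4.33 in KO cells and rose by 2.86 ± 0.17 (adjusted p = 0.00107). All 3 genes had both KO values more than 1 unit above both WT values. Gss, which completes the synthesis, was at 0.01 and 0.25 in WT and 1.94 and 1.67 in KO cells and rose by 1.68 ± 0.16 (adjusted p = 0.00267).

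The glutathione transferases, which attach glutathione to electrophiles, showed the largest shifts of the list. Gsta3 (chromosome 1, 21255189 to 21255248, mm9) was at -3.11 and -2.00 in WT and 3.89 and 3.86 in KO cells, a rise of 6.43 ± 0.34 (SE, adjusted p = 0.000951). It was the largest rise among named genes measured above background in both groups. Its WT values lay below the 75th percentile and its KO values well above it. Gsta1 and Gsta2 were not well above background on either WT array, and KO cells held at least 14.5-fold and at least 6.45-fold more, from the KO mean against the lowest signal that passed on the WT arrays. Among the mu class, Gstm2 was at -1.58 and -1.80 in WT and 0.91 and 0.98 in KO cells and rose by 2.63 ± 0.13 (adjusted p = 0.000944), with Gstm4 (1.45), Gstm3 (1.26) and Gstm1 (1.23) also called. Paralogues of these classes are similar in sequence, and cross-hybridisation of their probes was not tested. The export pumps Abcc4 (1.14, measured on KO LPS replicate 1 alone of the KO arrays) and Abcc1 (0.94) and the recycling enzyme Gsr (0.90) rose as well. The 3 members that fell were Chac1 (-1.61), which degrades glutathione, Mgst3 (-1.07) and the peroxidase Gpx1 (-0.58). The Gstm1 call was lost without KO LPS replicate 1 or 2, that of Gpx1 without any 1 array other than WT LPS replicate 2, and that of Abcc1 without KO LPS replicate 1 or 2 or WT LPS replicate 2. Gpx1 was not called with the authors' deposited values or with another scaling.

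The promoters of Gsta3 and Gclm are shown because these genes rose and each holds, within 250 bases before a RefSeq start, the letters TGACNNNGC on either strand, the core of the antioxidant response element, here in capitals (RefSeq, GRCm38.p6, 5′ to 3′ in the direction of the gene, upstream bases only).
Gsta3, chr1:21240424-21240512 (plus strand): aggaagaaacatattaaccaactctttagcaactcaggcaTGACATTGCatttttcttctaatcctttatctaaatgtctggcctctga
Gclm, chr3:122245383-122245471 (plus strand): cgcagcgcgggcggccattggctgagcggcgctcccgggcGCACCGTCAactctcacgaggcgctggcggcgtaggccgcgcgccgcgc

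The match lies 121 bases before the Gsta3 start and 134 bases before the Gclm start, where it is on the opposite strand. The letters were common: 13.2% of the 13698 tested genes with a RefSeq promoter held them, 13.4% of genes called higher, 15.0% of genes called lower and 9 of 61 members (14.8%) of the glutathione, detoxification, thioredoxin and NADPH lists. They can overlap the TPA response element that AP-1 binds. A match is a description of these letters in this window, and their absence says nothing of other letters or distances.

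Detoxification genes, most of them for quinones, carbonyls and alcohols, rose beside the glutathione genes, with 8 of 16 called higher, 1 lower and a median difference of 1.06. Nqo1 (chromosome 8, 109912440 to 109912499, mm9), which reduces quinones, was at -2.80 and -2.75 in WT and 0.41 and 0.47 in KO cells, a rise of 3.21 ± 0.11 (SE, adjusted p = 0.000436). The replicates of each group differed by less than 0.1. Cbr3, a carbonyl reductase, was at 1.16 and 1.48 in WT and 4.38 and 4.24 in KO cells and rose by 2.99 ± 0.17 (adjusted p = 0.00107). Ephx1, the microsomal epoxide hydrolase, was at 0.69 and 0.92 in WT and 3.12 and 3.04 in KO cells and rose by 2.28 ± 0.14 (adjusted p = 0.00107). Akr1b8 (2.01), an aldo-keto reductase, Ugt1a6a (1.62), a glucuronosyltransferase, and Ptgr1 (1.50), a prostaglandin reductase, were also called. Adh7, a class IV alcohol dehydrogenase, lay below that mark on both WT arrays, reached 0.71 and 0.44 in KO cells and was at least 82.3-fold higher there. The aldehyde oxidase Aox1, likewise below that mark in WT cells, was at least 3.45-fold higher. The member that fell was the aldehyde dehydrogenase Aldh3a1 (-0.74). The Ptgr1 call was lost without KO LPS replicate 1, that of Aox1 without KO LPS replicate 1 or 2, and that of Aldh3a1 without KO LPS replicate 1 or 2 or KO untreated replicate 1 or 2. Aox1 was not called with normexp, nor Aldh3a1 with the authors' deposited values.

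Of 15 genes that remove peroxides or serve thioredoxin, 2 rose and 0 fell by limma, and 4 were higher and 0 lower at an unadjusted p under 0.05. Catalase (Cat) was at 0.68 and 0.04 in WT and 2.48 and 2.47 in KO cells, a rise of 2.11 ± 0.22 (SE, adjusted p = 0.00336), and Srxn1, which repairs over-oxidised peroxiredoxins, was at 5.85 and 6.43 in WT and 8.11 and 7.72 in KO cells, a rise of 1.77 ± 0.23 (adjusted p = 0.00646). Txnrd1, the thioredoxin reductase of the cytosol, differed by 0.47 ± 0.15 and was not called (adjusted p = 0.0891). Without WT LPS replicate 1 the called rises of the list were 4. Of 10 genes of NADPH supply, 2 rose and 0 fell (3 and 0 at an unadjusted p under 0.05), namely malic enzyme Me1, at 0.45 and 0.97 in WT and 2.82 and 2.49 in KO cells (a rise of 1.94 ± 0.23, adjusted p = 0.00468), and Pgd of the pentose phosphate pathway (0.95). G6pdx, which opens that pathway, differed by 0.25 (adjusted p = 0.349). Txnrd1, G6pdx and other genes given here as not called were chosen after their values were seen.

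The haem and iron genes called here all rose, with 6 of 14 higher, 0 lower (6 and 2 at an unadjusted p under 0.05) and a median of 0.27. With quantile normalisation 6 were called higher and 1 lower, and with normexp 6 and 3. Slc48a1, which carries haem out of the phagolysosome, was at 3.74 and 3.66 in WT and 5.88 and 5.65 in KO cells, a rise of 2.07 ± 0.15 (SE, adjusted p = 0.00141). Slc40a1, the iron exporter ferroportin, was at -0.01 and -0.26 in WT and 1.74 and 1.64 in KO cells, a rise of 1.82 ± 0.15 (adjusted p = 0.00180). Blvrb, which reduces biliverdin, rose by 1.43 ± 0.12 and the phagosomal metal transporter Slc11a1 (NRAMP1) by 1.14 ± 0.14. The transferrin receptor Tfrc (0.81) and Lcn2 (0.86), which withholds iron from bacteria, rose by less. Hmox1, the haem oxygenase that lies between import and biliverdin and is a standard NRF2 target, was high in both groups at 7.60 and 7.65 in WT and 7.78 and 7.83 in KO cells. Its groups did not overlap but differed by only 0.18 ± 0.11 and it was not called (adjusted p = 0.335). The ferritin genes were not called either (Fth1 -0.51, Ftl1 -0.30). The Tfrc call was lost without KO LPS replicate 1 or 2, and that of Lcn2 without any 1 array other than WT LPS replicate 1. Lcn2 was not called with a 75th percentile taken over detected probes.

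Among 8 regulators of the pathway, 2 rose and 2 fell, and the transcripts of NRF2 and KEAP1 were not among them. Nfe2l2 was at 6.51 and 7.04 in WT and 6.93 and 6.60 in KO cells, with overlapping groups and a difference of -0.01 (adjusted p = 0.986), and Keap1 at 5.37 and 5.13 in WT and 4.74 and 5.03 in KO cells (-0.36, adjusted p = 0.201). Bach1, a repressor at antioxidant response elements, was at 4.31 and 4.83 in WT and 3.53 and 3.18 in KO cells and fell by 1.22 ± 0.21 (SE, adjusted p = 0.0153). The small Maf proteins, partners of both NRF2 and BACH1, went different ways. Mafk was at 3.58 and 3.50 in WT and 1.97 and 1.86 in KO cells and fell by 1.63 ± 0.14 (adjusted p = 0.00200), while Maff (0.90) and Mafg (0.89) rose. The Bach1 call was lost without KO LPS replicate 2, that of Maff without KO LPS replicate 1, and that of Mafg without KO LPS replicate 1 or 2, KO untreated replicate 1 or 2 or WT LPS replicate 1.

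**Figure D2:**
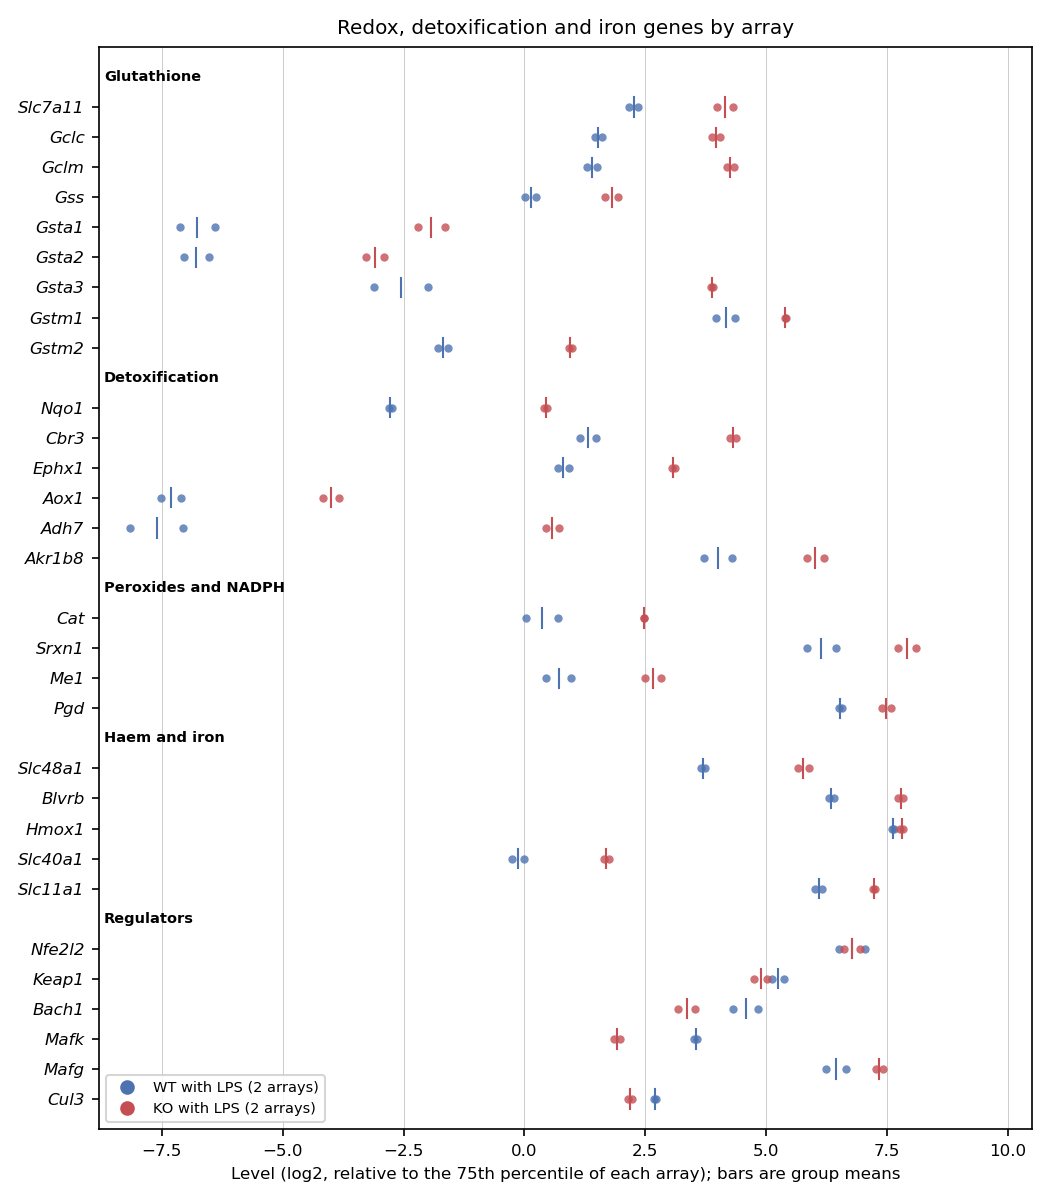
Level of redox, detoxification and iron genes on each LPS array (log2 relative to the 75th percentile of the array), with WT arrays in blue, KO arrays in red and short bars at the group means. Gsta3, Nqo1, Gclc and Gclm show wide gaps between groups, while Hmox1 differed by 0.18 and Nfe2l2 overlapped between groups.

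Interferon beta and many, not all, of the genes downstream of it fell in KO cells. Of 19 genes of the interferon chain 9 fell and 0 rose (median -0.68), of 30 antiviral interferon-stimulated genes 17 fell and 0 rose (median -0.62), and of 16 guanylate-binding proteins and immunity-related GTPases 13 fell and 0 rose (median -1.10). At an unadjusted p under 0.05 the counts of higher and lower genes were 1 and 14, 0 and 28, and 0 and 15. All 30 antiviral genes had a negative difference. Ifnb1, the interferon beta gene (chromosome 4, 88168023 to 88168082, mm9), was at 0.35 and 0.52 in WT and -2.10 and -2.17 in KO cells and fell by 2.57 ± 0.49 (SE, adjusted p = 0.0192). Without KO LPS replicates 1 and 2 in turn, the falls numbered 4 and 3 in the chain, 5 and 1 among antiviral genes and 6 and 5 among the GTPases, and the antiviral falls were 8 without either untreated KO replicate or WT LPS replicate 2. The antiviral falls were 8 with quantile normalisation, 9 with median centring, 6 with the deposited values, 23 with normexp and 4 on the LPS arrays alone. The GTPase falls were 9, 11, 7, 15 and 5 under the same settings and those of the chain 6, 6, 5, 12 and 2, and no antiviral or GTPase gene was called higher in any of them.

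Upstream of the interferon gene, the adaptor Ticam1 (-0.71) and the kinase Tbk1 (-0.61), which links it to IRF3, fell, while Irf3 differed by 0.29 (adjusted p = 0.202). Several IRF genes were lower. Irf8, a factor of myeloid identity that also acts at interferon-responsive promoters, was at 7.61 and 7.47 in WT and 6.02 and 6.32 in KO cells and fell by 1.37 ± 0.15 (SE, adjusted p = 0.00373). Irf1 was at 8.15 and 8.57 in WT and 7.33 and 7.17 in KO cells and fell by 1.11 ± 0.17 (adjusted p = 0.0104), and Irf2 (-1.04) and Irf9 (-0.60) also fell. Irf7, which amplifies interferon production, was at 7.50 and 8.03 in WT and 6.92 and 6.73 in KO cells and missed the threshold (-0.94, adjusted p = 0.0602). The receptor gene Ifnar1 (0.79, adjusted p = 0.0847) was not called. The feedback genes Usp18 (-1.15) and Socs1 (-0.68) fell. The Irf1 call was lost without KO LPS replicate 2, that of Ticam1 without KO LPS replicate 1 or 2, and that of Irf9 without any 1 array other than WT LPS replicate 1. That of Socs1 was lost without any 1 array other than WT LPS replicate 2, that of Ifnb1 without KO LPS replicate 1 or 2 or WT LPS replicate 1 or 2, and that of Tbk1 without any 1 array other than WT untreated replicate 1 or 2. Irf9, Tbk1 and Socs1 were not called with the authors' deposited values or with another scaling, nor Ticam1 with the authors' deposited values.

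Among antiviral effectors, Ifit1bl1 of the IFIT family was at 7.42 and 7.60 in WT and 4.54 and 4.45 in KO cells and fell by 3.01 ± 0.33 (SE, adjusted p = 0.00386), the largest fall of the list. Cmpk2, a mitochondrial nucleotide kinase induced by interferon, was at 9.04 and 9.22 in WT and 7.42 and 7.22 in KO cells and fell by 1.81 ± 0.27 (adjusted p = 0.00949). Ifit2 was at 8.20 and 8.45 in WT and 6.75 and 6.57 in KO cells and fell by 1.66 ± 0.33 (adjusted p = 0.0228). In each case the KO values kept the gene well above the 75th percentile of the array, below a higher WT level. Mx2 (-1.19), the kinase PKR (Eif2ak2, -1.11) and Ifit3 (-1.08) fell by about 1 unit, as did the RNA sensors Ifih1 (-0.88) and Ddx58 (-0.83) by slightly less. Isg15, the interferon-induced ubiquitin-like protein, was at 9.91 and 10.04 in WT and 9.37 and 9.57 in KO cells and was not called (-0.51, adjusted p = 0.0707). The calls of Cmpk2, Mx2, Eif2ak2 and Ddx58 were lost without KO LPS replicate 2, that of Ifih1 without any 1 array other than WT LPS replicate 1, and that of Ifit2 without KO LPS replicate 1 or 2 or WT LPS replicate 1 or 2. That of Ifit3 was lost without any 1 array other than WT untreated replicate 1 or 2. Ifit3 was not called with another scaling, nor Ifih1 with the authors' deposited values or with another scaling, nor Ddx58 with the authors' deposited values.

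Upstream sequences are shown for 3 of the genes that fell, Ifit1bl1, Ifit3 and Tgtp1, because their promoters hold the interferon-stimulated response element, searched as TTTC, any 2 bases and TTTC on both strands within 250 bases before a RefSeq start and given in capitals (RefSeq, GRCm38.p6, 5′ to 3′ in the direction of the gene, upstream bases only).
Ifit1bl1, chr19:34602023-34602112 (minus strand): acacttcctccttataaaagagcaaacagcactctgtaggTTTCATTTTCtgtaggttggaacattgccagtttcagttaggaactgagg
Ifit3, chr19:34583333-34583456 (plus strand): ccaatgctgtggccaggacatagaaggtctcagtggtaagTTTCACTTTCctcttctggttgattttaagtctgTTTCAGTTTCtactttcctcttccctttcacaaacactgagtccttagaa
Tgtp1, chr11:48992274-48992363 (minus strand): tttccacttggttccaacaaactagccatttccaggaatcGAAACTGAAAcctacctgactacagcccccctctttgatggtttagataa

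Of the antiviral and GTPase list members with a RefSeq promoter, 19 of 31 (61.3%) held these letters, and 11 of the 20 (55.0%) that were called lower. Over all tested genes with a promoter the share was 3.48%. It was 2.07% for genes called higher in KO cells, 6.49% for genes called lower and 3.29% for genes not called. The NF-kappaB site was found in 10.6% of genes called higher, 11.8% of genes called lower and 9.59% of genes not called.

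The GTPases that coat and disrupt pathogen vacuoles had the highest share of falls of the 3 lists. Gbp4 was at 4.88 and 5.53 in WT and 3.16 and 2.89 in KO cells and fell by 2.18 ± 0.26 (SE, adjusted p = 0.00505). Gbp8 was at -0.76 and -0.42 in WT and -2.54 and -2.76 in KO cells and fell by 2.06 ± 0.16 (adjusted p = 0.00162). Iigp1, an immunity-related GTPase that attacks Toxoplasma and Chlamydia vacuoles, was at 6.72 and 6.76 in WT and 5.07 and 5.31 in KO cells and fell by 1.55 ± 0.13 (adjusted p = 0.00212). Both groups were well above background in each of these genes. The other falls were Tgtp1 (-1.61), Gbp9 (-1.31), Gbp10 (-1.19), Gbp6 (-1.14), Irgm2 (-1.08) and Gbp2 (-0.95), among others. Gbp5, Gbp7 and Gbp3 were not called (-0.91, -0.58 and -0.44, the last measured on 1 KO array). Members of this family lie in clusters of near-identical paralogues, and cross-hybridisation was not tested. The calls of Gbp10 and Gbp6 were lost without KO LPS replicate 1 or 2, that of Irgm2 without KO LPS replicate 2 or WT LPS replicate 2, and that of Gbp2 without KO LPS replicate 1 or 2 or WT LPS replicate 1 or 2. Gbp2 was not called with the authors' deposited values or with another scaling.

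More cytokine genes fell than rose in KO cells, with 11 of 25 lower, 1 higher and a median of -0.82. Tnfsf18, the ligand of the costimulatory receptor GITR, was at -1.56 and -1.01 in WT and -4.76 and -4.97 in KO cells and fell by 3.58 ± 0.34 (SE, adjusted p = 0.00273). Il33 was at 2.25 and 2.85 in WT and 0.49 and 0.33 in KO cells and fell by 2.14 ± 0.25 (adjusted p = 0.00475). Il15, which sustains natural killer and memory T cells, was at 5.70 and 5.62 in WT and 3.89 and 3.69 in KO cells and fell by 1.87 ± 0.12 (adjusted p = 0.00125). The T cell cytokine subunit Il27 (-1.80), the anti-inflammatory cytokine Il10 (-1.56), the macrophage growth factor Csf1 (-1.77), the death ligand Tnfsf10 (-1.96) and the endothelin precursor Edn1 (-1.79) fell too. Csf2, the granulocyte-macrophage growth factor, was at -2.13 and -2.58 in WT and -1.07 and -1.46 in KO cells and rose by 1.09 ± 0.21 (adjusted p = 0.0193).

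The classical early cytokines were lower on both KO arrays but were not called. Tnf was at 7.32 and 6.91 in WT and 6.63 and 6.49 in KO cells (a difference of -0.55, adjusted p = 0.0798), Il1b at 9.73 and 9.77 in WT and 9.30 and 9.46 in KO cells (-0.37, adjusted p = 0.113) and Il12b at 7.50 and 7.30 in WT and 6.45 and 6.39 in KO cells (-0.98, adjusted p = 0.184). Il6 was at 9.24 and 9.15 in WT and 8.55 and 8.42 in KO cells. Its groups were further apart than their replicates, but the fit, which shares its spread with the untreated arrays, gave a difference of -0.71 ± 0.79 (SE, adjusted p = 0.586). Csf2, Csf1 and Il10 and the uncalled cytokines were named after their values were seen. The cytokine falls were 7 without KO LPS replicate 2. The Tnfsf10 call was lost without KO LPS replicate 2, and that of Csf2 without KO LPS replicate 1 or WT LPS replicate 2.

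Chemokines moved both ways, with 8 of 23 falling and 5 rising (median -0.41). The falls were of attractants of monocytes and lymphocytes, and 3 of the rises were of ELR-type attractants of neutrophils. Cxcl9, an interferon-induced T cell attractant (chromosome 5, 92752796 to 92752855, mm9), was at 7.08 and 7.20 in WT and 4.70 and 4.60 in KO cells and fell by 2.49 ± 0.13 (SE, adjusted p = 0.000932). Ccl17, which attracts T cells through CCR4, was at 3.88 and 3.25 in WT and 1.41 and 0.99 in KO cells and fell by 2.36 ± 0.26 (adjusted p = 0.00403). The monocyte attractants Ccl7, Ccl12 and Ccl2 of the CCR2 family fell together. Ccl7 was at 9.62 and 9.82 in WT and 7.56 and 7.48 in KO cells and fell by 2.20 ± 0.29 (adjusted p = 0.00667). Ccl12 fell by 2.23 ± 0.22 and Ccl2 by 1.65 ± 0.22. Ccl8 fell by 1.93 ± 0.16. In contrast, Cxcl5 was at -2.00 and -1.65 in WT and 1.08 and 0.53 in KO cells and rose by 2.63 ± 0.28 (adjusted p = 0.00365). Cxcl1 (1.26) and Cxcl3 (1.44), which share its receptor CXCR2, rose as well, while Cxcl2, a close relative, overlapped between groups (-0.01, adjusted p = 0.989). The other called members were Ccl22 (-1.55), Cx3cl1 (-1.29), Ccl24 (0.95) and Pf4 (0.72). Cxcl10 (-0.54, adjusted p = 0.105) and Ccl5 (-0.41, adjusted p = 0.0875) were not called. The rises of the list were 2 without KO LPS replicate 1 or 2 and 3 without WT LPS replicate 2. The Ccl22 call was lost without KO LPS replicate 2, that of Ccl24 without any 1 array other than WT LPS replicate 1, and that of Cxcl3 without KO LPS replicate 1 or 2 or WT LPS replicate 2. That of Pf4 was lost without KO LPS replicate 1 or 2 or KO untreated replicate 1 or 2. Ccl24 was not called with quantile normalisation.

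Of 15 chemoattractant receptors, 4 rose and 3 fell. Cmklr1, the chemerin receptor, was at -3.98 and -4.63 in WT and -1.97 and -1.95 in KO cells and rose by 2.34 ± 0.32 (SE, adjusted p = 0.00753). C5ar1, the receptor for complement C5a, rose by 0.99 ± 0.13 (adjusted p = 0.00699) and the decoy receptor Ccrl2 fell by 0.98 ± 0.11 (adjusted p = 0.00412). The formyl peptide receptor Fpr1 (0.64) and the interleukin-8 type receptor Cxcr2 (1.17, with 1 WT array well above background) rose, and Ccr1 (-0.92) and Cxcr3 (-0.81) fell. The Cxcr2 call was lost without KO LPS replicate 2 or WT LPS replicate 1, that of Fpr1 without any 1 array other than WT LPS replicate 2, and that of Cxcr3 without any 1 array other than WT LPS replicate 1. That of Ccr1 was lost without any 1 array other than WT untreated replicate 1 or 2. Cxcr2 was not called with normexp, nor Ccr1 with median centring, nor Cxcr3 with the authors' deposited values or with another scaling. Without KO LPS replicate 2 the rises were 2, and the falls were 1 without either KO LPS replicate, either untreated KO replicate or WT LPS replicate 2.

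**Figure D3:**
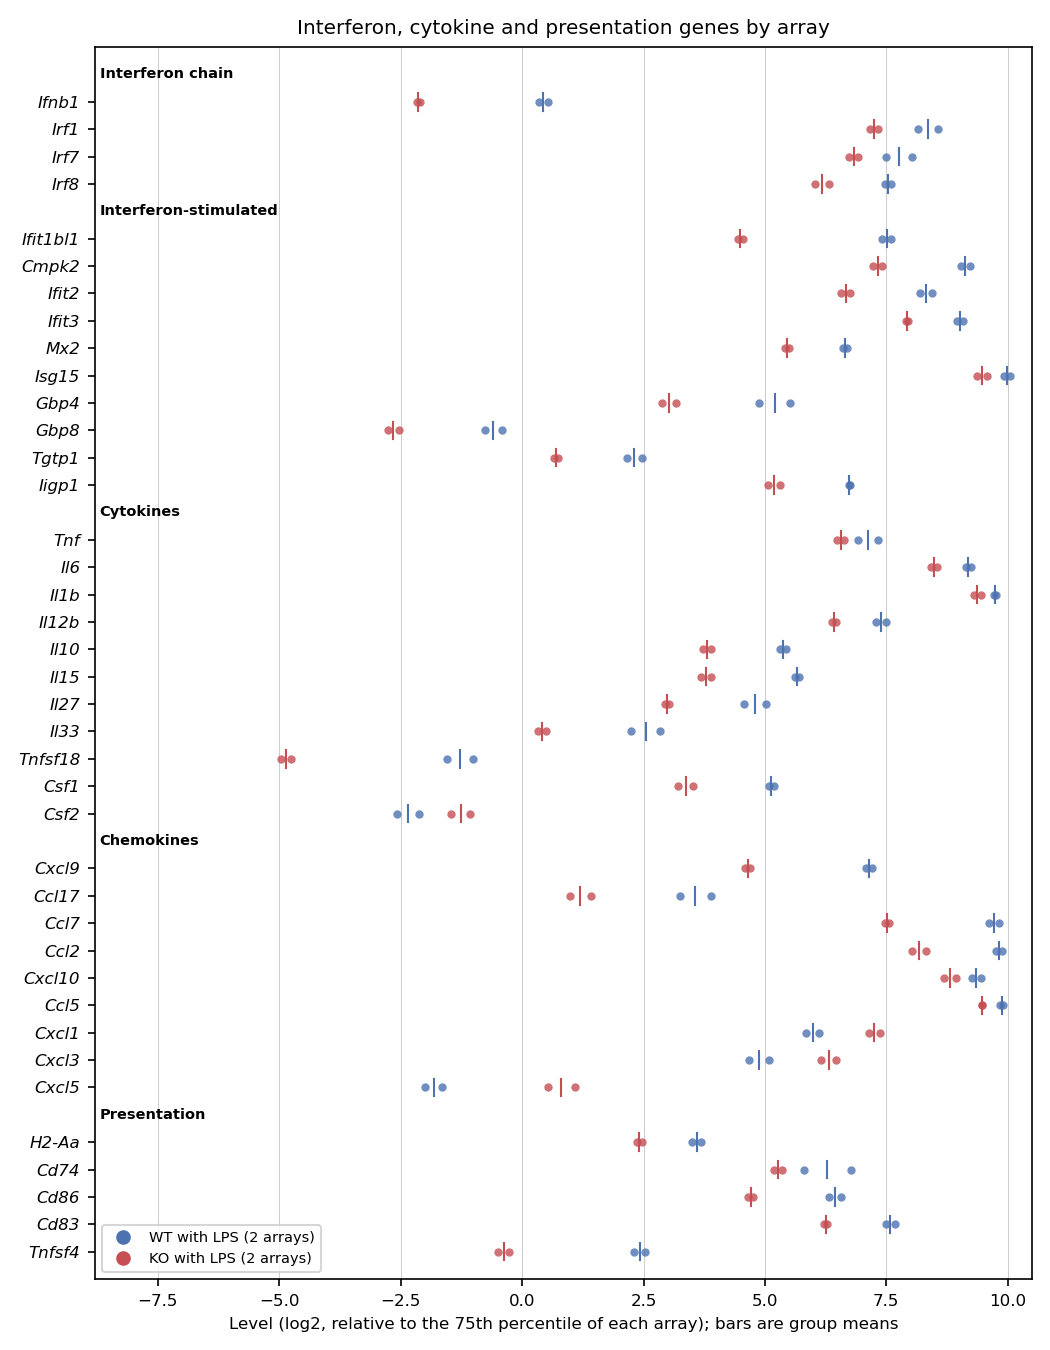
Level of interferon, cytokine, chemokine and presentation genes on each LPS array (log2 relative to the 75th percentile of the array), with WT arrays in blue, KO arrays in red and short bars at the group means. Most KO values lie to the left of WT values, by -2.49 for Cxcl9 and -2.57 for Ifnb1, while Cxcl1, Cxcl3, Cxcl5 and Csf2 lie to the right.

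The genes of the LPS receptor were not called. Of 23 Toll-like receptors and adaptors 1 rose and 3 fell, where 7.87% of all genes tested were called higher and 8.54% lower. Tlr4 differed by 0.35 (adjusted p = 0.102), its partner Ly96 (MD-2) by -0.28 (adjusted p = 0.389) and the co-receptor Cd14 by -0.08 (adjusted p = 0.774). Tlr3, a double-stranded RNA sensor that is itself interferon-induced, was at 4.48 and 4.66 in WT and 3.27 and 3.05 in KO cells and fell by 1.41 ± 0.15 (SE, adjusted p = 0.00404), and the adaptors Ticam1 and Myd88 fell, the latter by 0.53 ± 0.12. Irak1, a kinase downstream of MyD88, rose by 0.51 ± 0.12. Of 13 NF-kappaB subunits and inhibitors 2 fell and 0 rose (3 and 1 at an unadjusted p under 0.05): the subunit c-Rel (Rel), at 1.47 and 1.61 in WT and 0.45 and 0.23 in KO cells, fell by 1.20 ± 0.15 (adjusted p = 0.00574) and the cofactor Nfkbiz by 1.11 ± 0.20, while Nfkb1 differed by -0.32 (adjusted p = 0.224). The median of the Toll-like receptor list was -0.08, that of the NF-kappaB list -0.22. The Nfkbiz call was lost without KO LPS replicate 2, that of Irak1 without any 1 of the 8 arrays, and that of Myd88 without any 1 array other than WT LPS replicate 2. Myd88 was not called with the authors' deposited values or with another scaling. Leaving out KO LPS replicate 1 or 2 left 1 Toll-like receptor fall, and the deposited values gave 6 rises and 1 fall of that list.

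Of 22 inhibitors that restrain Toll-like receptor signalling 9 fell and 2 rose, with a median of -0.44. Atf3, an induced transcriptional repressor, was at 7.89 and 8.25 in WT and 6.53 and 6.53 in KO cells and fell by 1.54 ± 0.16 (SE, adjusted p = 0.00332). Zfp36 (tristetraprolin), which destabilises cytokine mRNAs, was at 7.08 and 6.70 in WT and 5.51 and 5.51 in KO cells and fell by 1.38 ± 0.17 (adjusted p = 0.00528). Klf4 (-1.54), the phosphatase Dusp1 (-1.12), the pseudokinase Trib3 (-1.56), Tnip3 (-1.07) and the interleukin-10 receptor chain Il10ra (-0.93) fell as well. Irak3 (0.55) and Dusp16 (0.54) rose. Of 19 AP-1, EGR and immediate-early factors 6 fell and 2 rose. Batf2, an interferon-induced factor, was at 6.59 and 6.42 in WT and 5.18 and 5.18 in KO cells and fell by 1.33 ± 0.12 (adjusted p = 0.00248), Egr1 fell by 1.10 ± 0.16, and Fosl1 (0.93) and Maff rose. The Egr1 call was lost without KO LPS replicate 2, those of Trib3 and Dusp1 without KO LPS replicate 1 or 2, and those of Irak3 and Dusp16 without any 1 array other than WT LPS replicate 1. That of Tnip3 was lost without KO LPS replicate 1 or 2 or WT LPS replicate 2, and that of Fosl1 without any 1 array other than WT untreated replicate 1 or 2. Irak3 was not called with another scaling. The inhibitor falls were 4 without KO LPS replicate 1 or 2 and 1 on the LPS arrays alone, and the AP-1 falls were 1 without KO LPS replicate 2 and 3 without any 1 of the other 7.

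Some of the genes by which macrophages present antigen and costimulate T cells fell in KO cells, and none of the 40 tested rose. Of 13 costimulatory and checkpoint ligands 7 fell and 0 rose (9 and 1 at an unadjusted p under 0.05), with a median of -0.74. Tnfsf4 (OX40 ligand) was at 2.31 and 2.53 in WT and -0.26 and -0.49 in KO cells and fell by 2.80 ± 0.19 (SE, adjusted p = 0.00128). Cd86, the ligand of CD28, was at 6.33 and 6.56 in WT and 4.76 and 4.65 in KO cells and fell by 1.74 ± 0.13 (adjusted p = 0.00157). Cd80, another ligand of CD28, differed by 0.27 (adjusted p = 0.502). Cd83, a maturation marker, was at 7.68 and 7.49 in WT and 6.23 and 6.28 in KO cells and fell by 1.33 ± 0.13 (adjusted p = 0.00279). Cd40 (-0.97) and the checkpoint ligand Cd274 (PD-L1, -0.79) fell too. Of 11 MHC class II genes 5 fell and 0 rose (7 and 0 at an unadjusted p under 0.05, median -0.61), led by H2-Aa, at 3.50 and 3.69 in WT and 2.46 and 2.36 in KO cells (fell by 1.18 ± 0.17, adjusted p = 0.00894), and H2-Eb1 (-1.03). The invariant chain Cd74 was at 6.77 and 5.80 in WT and 5.19 and 5.35 in KO cells, with WT replicates far apart, and was not called (-1.02, adjusted p = 0.0745). Of 16 class I and immunoproteasome genes 6 fell and 0 rose (15 and 0 at an unadjusted p under 0.05, median -0.49), the largest fall being that of H2-Q4 (-0.79).

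The calls of Cd274 and H2-Aa were lost without KO LPS replicate 2, and those of Cd40 and H2-Eb1 without KO LPS replicate 1 or 2. Cd40 and Cd274 were not called with the authors' deposited values. Without KO LPS replicates 1 and 2 in turn, the falls were 4 and 3 of the costimulatory list, 2 and 1 of class II and 0 and 0 of class I, and class I falls were 1 without either untreated KO replicate, 2 without WT LPS replicate 2 and 3 without either untreated WT replicate. Class II falls were 3 without either untreated KO replicate or WT LPS replicate 1. The class I falls were 1 with quantile normalisation, 2 with median centring, 0 with the deposited values as given and 12 with normexp. On the LPS arrays alone limma called 0 genes of class I and 0 of class II, and 3 of the costimulatory list.

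In arginine metabolism 1 gene was called, where 7.87% of all genes tested were called higher and 8.54% lower. Arg1, the arginase that competes with nitric oxide synthase for arginine, was at -1.07 and -1.14 in WT and 1.36 and 1.58 in KO cells and rose by 2.57 ± 0.25 (SE, adjusted p = 0.00307), the single call among 10 genes of arginine, nitric oxide and itaconate metabolism (2 higher and 3 lower at an unadjusted p under 0.05). Nos2, the inducible nitric oxide synthase, was at 9.26 and 9.18 in WT and 8.51 and 8.60 in KO cells and was not called (-0.67, adjusted p = 0.0627). By limma 0 of 6 phagocyte oxidase genes were called, and 0 at an unadjusted p under 0.05. Of 25 proteasome subunits 0 were called, with 1 higher and 2 lower at that unadjusted p. Of 14 prostaglandin and phospholipase genes 3 rose and 1 fell. Pla2g7, which hydrolyses platelet-activating factor, was at 4.59 and 4.70 in WT and 8.13 and 8.16 in KO cells and rose by 3.50 ± 0.11 (adjusted p = 0.000436). The prostaglandin E receptor gene Ptger2 rose by 1.48 ± 0.11, Ptger4 was lower (-0.74), the synthase Ptges rose by 1.03 ± 0.18 and the cyclooxygenase Ptgs2 differed by -0.24 (adjusted p = 0.656). The Ptges call was lost without KO LPS replicate 1 or 2, and that of Ptger4 without any 1 array other than WT untreated replicate 1 or 2. Ptger4 was not called with the authors' deposited values or with another scaling.

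Of 12 inflammasome and caspase genes 5 fell and 1 rose. Nlrc4, which assembles an inflammasome on flagellin and secretion-system proteins, was at 0.17 and 0.11 in WT and 2.13 and 2.44 in KO cells and rose by 2.14 ± 0.14 (SE, adjusted p = 0.00125). Casp8 fell by 0.83 ± 0.11, the DNA sensor Aim2 by 1.05 ± 0.17, and Casp4 (-0.85) and Casp1 (-0.62) by less, while Nlrp3 overlapped between groups (0.16, adjusted p = 0.597). The Aim2 call was lost without KO LPS replicate 1 and that of Casp1 without any 1 array other than WT LPS replicate 1. That of Casp4 was lost without KO LPS replicate 1 or 2, KO untreated replicate 1 or 2 or WT LPS replicate 2. Casp8 was not called with the authors' deposited values, nor Casp4 or Casp1 with the authors' deposited values or with another scaling. The falls were 1 with the deposited values as given and without KO LPS replicate 1, 2 without KO LPS replicate 2 or either untreated KO replicate and 3 without WT LPS replicate 2.

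More lipid genes rose than fell in KO cells, with most of each list not called. Of 24 genes of cholesterol synthesis and uptake 6 rose and 1 fell (median 0.25), and of 22 fatty acid synthesis and LXR genes 6 rose and 2 fell (median 0.20). Mvd, an enzyme of the mevalonate pathway, was at -2.59 and -2.61 in WT and -0.76 and -0.77 in KO cells and rose by 1.83 ± 0.11 (SE, adjusted p = 0.00109). Stard4, which moves sterol between membranes, was at -4.10 and -3.01 in WT and -1.26 and -1.35 in KO cells and rose by 2.25 ± 0.33 (adjusted p = 0.00894). Hmgcs1 (0.57), Msmo1 (0.67) and Hsd17b7 (0.98) of the same pathway rose by less, and its transcription factor Srebf2 (-0.72) fell, a call lost with the mean of its probes (-0.43). Scd2, a fatty acid desaturase, was at -0.63 and -1.00 in WT and 1.42 and 2.18 in KO cells and rose by 2.62 ± 0.27 (adjusted p = 0.00328). Cd36, which takes up fatty acids and oxidised lipoproteins, was at 2.94 and 2.78 in WT and 4.56 and 4.62 in KO cells and rose by 1.73 ± 0.12 (adjusted p = 0.00137). Fasn did not rise clear of background on either WT array, and KO cells held at least 2.90-fold more. The cholesterol exporters went different ways, Abca1 rising by 0.72 ± 0.12 and Abcg1 falling by a log2 change of -0.79, and the lipid droplet protein Plin2 (-0.76) fell.

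The Abcg1 call was lost without KO LPS replicate 1, that of Msmo1 without any 1 of the 8 arrays, and those of Fasn, Abca1 and Plin2 without KO LPS replicate 1 or 2. That of Hsd17b7 was lost without any 1 array other than WT LPS replicate 1 or 2, and those of Hmgcs1 and Srebf2 without any 1 array other than WT untreated replicate 1 or 2. Fasn was not called with normexp, nor Srebf2 with the authors' deposited values or with another scaling, nor Abcg1 or Plin2 with the authors' deposited values. The deposited values gave 12 sterol rises. Sterol rises were 2 without KO LPS replicate 1 or 2 and 3 without either untreated KO replicate, and the fatty acid rises were 2 and 3 without KO LPS replicates 1 and 2. Glycolytic and hypoxia-inducible genes were mixed, with 6 of 27 higher and 4 lower. The prolyl hydroxylase Egln3 was at 1.46 and 1.16 in WT and 2.90 and 3.04 in KO cells and rose by 1.66 ± 0.15 (SE, adjusted p = 0.00220), Pfkfb4 rose by 1.33 ± 0.17 and hexokinase Hk3 fell by 1.24 ± 0.13. With the deposited values as given the list had 11 rises and 1 fall. The rises of that list were 2 without either KO replicate of either treatment and 3 without WT LPS replicate 1, and the falls 1 without KO LPS replicate 1 or 2. Of 24 lysosomal genes 6 fell and 1 rose (median -0.37), against 2 and 1 with quantile normalisation or median centring and 2 and 2 with the deposited values as given. The proton pump subunit Atp6v0d2, at 0.91 and 0.99 in WT and -0.90 and -1.15 in KO cells, fell by 1.98 ± 0.20 (adjusted p = 0.00319) and cathepsin K (Ctsk), at 2.89 and 3.23 in WT and 1.38 and 1.04 in KO cells, by 1.85 ± 0.22 (adjusted p = 0.00479). Both are also osteoclast markers. Tfeb, a transcription factor for lysosomal genes, rose by 0.94 ± 0.13 (adjusted p = 0.00840), a call that was lost without KO LPS replicate 2, and the falls were 2 or 3 without any 1 array other than WT LPS replicate 1.

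**Figure D4:**
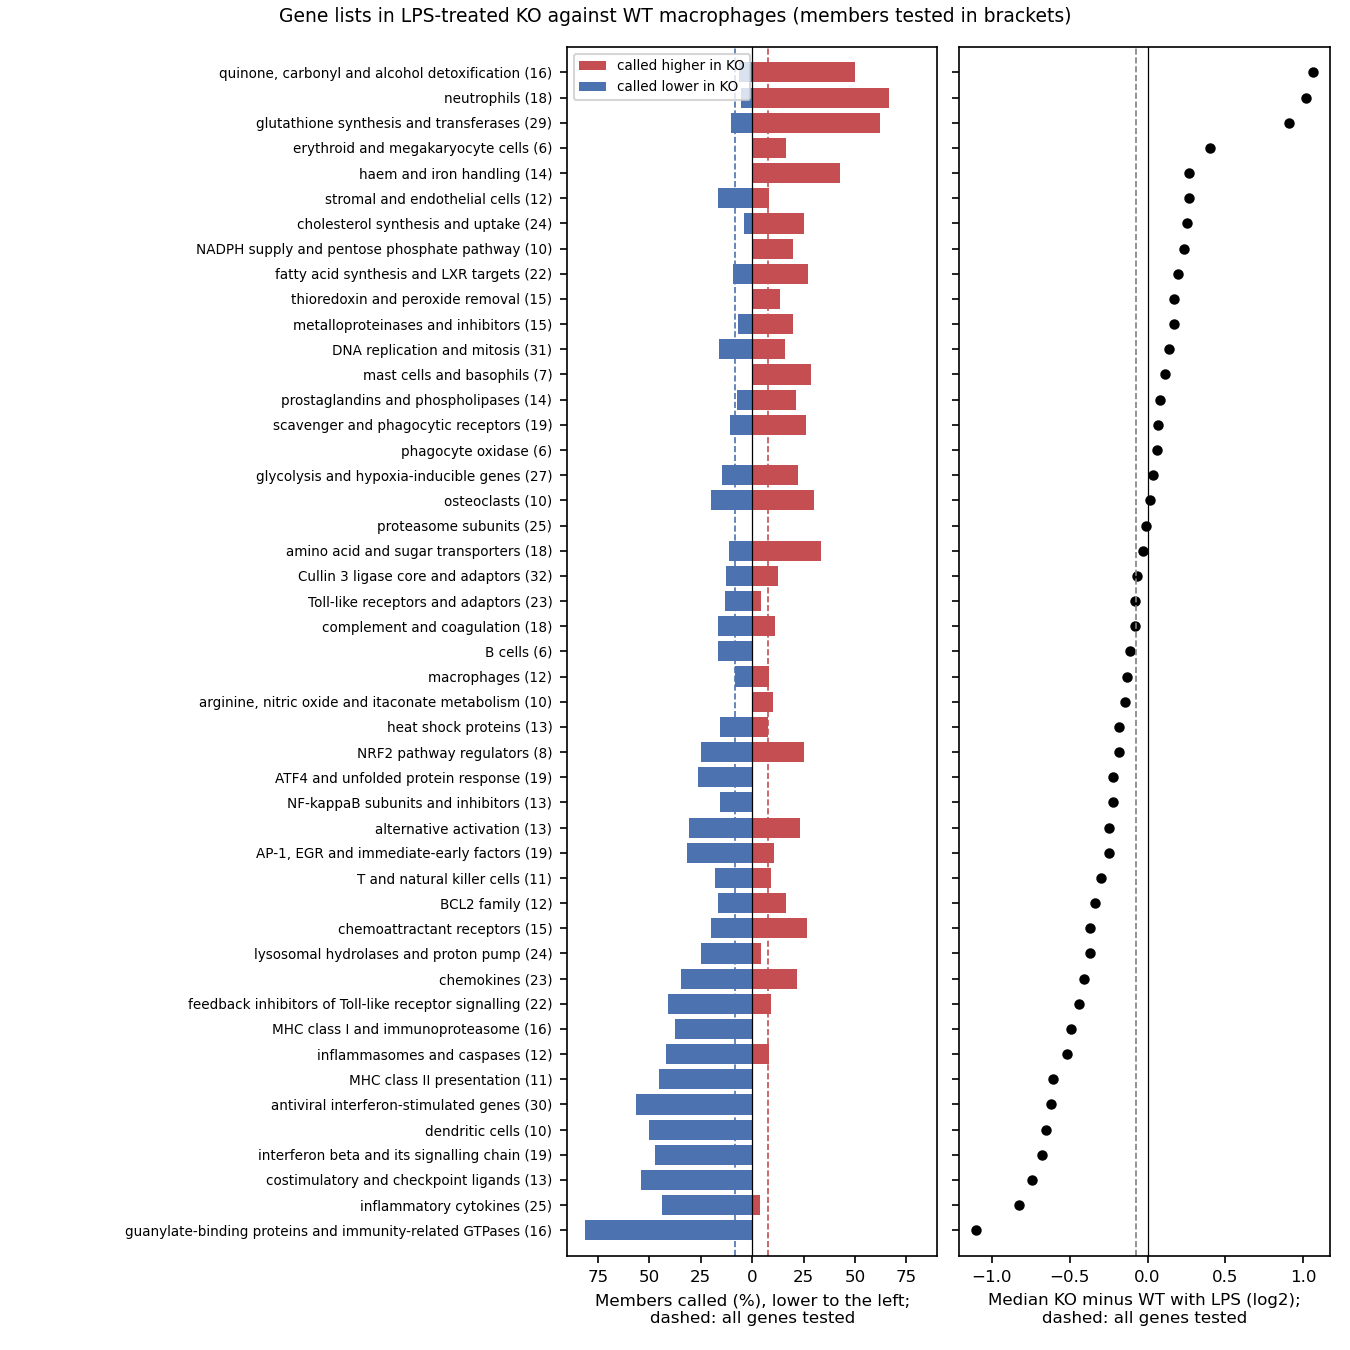
Left, the share of tested members called higher (red, to the right) or lower (blue, to the left) in KO cells with LPS for each gene list, in percent, with dashed lines at the shares of all genes tested (7.87% and 8.54%). Right, the median difference of each list (log2), with a dashed line at the median of all genes tested (-0.08); detoxification, neutrophil and glutathione lists lie highest, GTPases lowest.

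Among single genes with the largest rises, several encode membrane transporters and receptors. Slc6a9, a glycine transporter, was at -0.35 and -0.07 in WT and 4.29 and 4.09 in KO cells and rose by 4.41 ± 0.15 (SE, adjusted p = 0.000436). Slc16a9, a member of the monocarboxylate transporter family, was at -5.81 and -4.17 in WT and 0.79 and 0.72 in KO cells, with 1 WT array well above background, and rose by 5.75 ± 0.48 (adjusted p = 0.00200). Both lie on the list of 18 amino acid and sugar transporters, of which 6 rose and 2 fell. Marco, a scavenger receptor for bacteria and particles, was at 4.67 and 5.42 in WT and 8.45 and 8.18 in KO cells and rose by 3.27 ± 0.27 (adjusted p = 0.00194). Timd4, a receptor for phosphatidylserine on dying cells, rose by 1.54 ± 0.14 and Mertk, a kinase that serves the same uptake, fell by 1.09 ± 0.13, among 19 scavenger and phagocytic receptors of which 5 rose and 2 fell. Gt(ROSA)26Sor, the transcript of the ROSA26 locus into which transgenes are often placed, was at -4.04 and -2.92 in WT and 2.05 and 1.87 in KO cells and rose by 5.44 ± 0.35 (adjusted p = 0.00125). The labels do not mention a transgene at that locus. Transporter rises were 3 without either KO LPS replicate, either untreated KO replicate or WT LPS replicate 2, and scavenger receptor rises were 3 without KO LPS replicate 1.

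Tmem119 was at -3.37 and -3.74 in WT and -0.07 and 0.26 in KO cells and rose by 3.65 ± 0.19 (SE, adjusted p = 0.000951). Slpi, a secreted inhibitor of leukocyte proteases, was at 4.02 and 4.29 in WT and 7.43 and 7.38 in KO cells and rose by 3.25 ± 0.16 (adjusted p = 0.000932). The endothelin receptor gene Ednrb was at -0.09 and -0.23 in WT and 3.00 and 3.11 in KO cells and rose by 3.22 ± 0.16 (adjusted p = 0.000932), while its ligand gene Edn1 fell. Il1f9, the interleukin-36 gamma gene, rose by 3.17 ± 0.35, the lectin receptor Clec4n (dectin-2) by 3.13 ± 0.26, the adhesion protein Esam by 3.37 ± 0.43 and Fam13a by 3.96 ± 0.56 (both well above background on 1 WT array), Lrmda by 3.12 ± 0.15 and Serinc2 by 3.11 ± 0.21. Of genes below background in WT cells, the transcription factor Foxq1 and the gamma-glutamyltransferase Ggt5 were higher by at least 8.81-fold and 8.05-fold. The naming rule passed over 8 higher candidates that carry only probe, accession, clone, RIKEN, Gm or LOC names.

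The largest falls were spread over genes of different kinds. Glrp1 was at -0.52 and 0.27 in WT and -3.95 and -4.17 in KO cells and fell by 3.94 ± 0.33 (SE, adjusted p = 0.00200). Dnajb3, a DNAJ-family co-chaperone, was at -1.29 and -1.15 in WT and -5.13 and -5.09 in KO cells and fell by 3.89 ± 0.16 (adjusted p = 0.000637). Ada, adenosine deaminase, which clears adenosine, was at 3.46 and 3.46 in WT and 0.38 and 0.37 in KO cells and fell by 3.09 ± 0.12 (adjusted p = 0.000637). The clade A serpins Serpina3i (-3.11), Serpina3f (-3.12) and Serpina3g (-2.87), paralogues that lie together on chromosome 12 and whose cross-hybridisation was not tested, all fell. The Notch ligand Dll1 was at 0.30 and 0.21 in WT and -2.59 and -2.71 in KO cells and fell by 2.91 ± 0.29 (adjusted p = 0.00310), and the interleukin-18 receptor accessory chain Il18rap fell by 2.80 ± 0.20. Pou3f1 (-2.84), Ell3 (-3.03), Ildr1 (-2.99), Sypl2 (-2.96), Clic5 (-2.81), Tcstv3 (-3.18) and Frmd5 (-2.94) were the other named falls above background in both groups, Frmd5 on 1 of the KO arrays. Cdhr3, Tas2r115 and Timd2 were not well above background in KO cells and were at least 11.7-fold, 9.82-fold and 9.41-fold lower. The Serpina3f call was lost without KO LPS replicate 2, and that of Frmd5 without KO LPS replicate 1 or 2, KO untreated replicate 1 or 2 or WT LPS replicate 2.

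Markers of other marrow cells were read as a check on what the cultures held. Neutrophil markers were higher in KO cells, with 12 of 18 called higher and 1 lower (median 1.02, or 0.88 with genes below background in WT cells at their bound). In untreated cells 12 were called higher in KO cells and 0 lower, with a median of 1.37. Camp, a granule peptide, was at 1.18 and 1.53 in WT and 3.33 and 3.04 in KO cells and rose by 1.83 ± 0.19 (SE, adjusted p = 0.00340), and lactoferrin (Ltf), of the same granules, was at -1.40 and -1.55 in WT and 0.51 and 0.07 in KO cells and rose by 1.77 ± 0.25 (adjusted p = 0.00860). The gelatinase Mmp9 (2.15) and Chil1 (2.06) rose, S100a8 (0.99) and S100a9 (0.83) rose by less, and the neutrophil elastase gene Elane (-0.76) fell. Ly6g, a defining surface marker, differed by -0.49 (adjusted p = 0.108), Mpo by 0.38 (adjusted p = 0.496) and Csf3r by 0.16 (adjusted p = 0.408). The summed linear signal of the list, in units of the 75th percentile, was 354 and 324 in WT and 517 and 551 in KO cells, with 15 of 18 members well above background on all 4 arrays. In bulk RNA a different share of cells and a different amount of RNA per cell cannot be told apart, and the part of neutrophil RNA in the differences above, Cxcl5, Mmp9, Cxcr2 and Lcn2 among them, was not tested. The rises were 5 and 4 without KO LPS replicates 1 and 2 and 7 without WT LPS replicate 1. The S100a8 call was lost without KO LPS replicate 1 or 2, and those of S100a9 and Elane without KO LPS replicate 1 or 2, KO untreated replicate 1 or 2 or WT LPS replicate 1. Elane was not called with the authors' deposited values or with another scaling.

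Macrophage markers summed to 1953 and 1951 in WT and 1685 and 1744 in KO cells, with 1 of 12 higher (Cebpa, 1.45) and 1 lower (Mertk). Of 10 dendritic cell markers 5 fell and 0 rose (6 and 0 at an unadjusted p under 0.05, median -0.65), with sums of 243 and 258 in WT and 238 and 223 in KO cells. Irf4 was at -1.23 and -1.07 in WT and -2.91 and -3.00 in KO cells and fell by 1.80 ± 0.13 (SE, adjusted p = 0.00149), Bcl11a fell by 1.72 ± 0.14 (not called, at -0.64, with the mean of its 2 probes), Batf3 by 0.87 ± 0.15 and Zbtb46 by 0.68 ± 0.15 (-0.23, not called, with the mean of its 2 probes). Clec9a, a marker of cross-presenting dendritic cells, was not well above background in KO cells and was at least 5.87-fold lower, while Itgax (CD11c) overlapped between groups (0.20, adjusted p = 0.561) and Flt3 differed by 0.32 (adjusted p = 0.298). Their share in the lower class II and costimulatory levels was not tested. B cell markers summed to at most 0.54 on any array, and T and natural killer markers to 25.8 and 25.2 in WT and 17.6 and 14.4 in KO cells. The Batf3 call was lost without KO LPS replicate 1 or 2, that of Clec9a without KO LPS replicate 1 or WT LPS replicate 1 or 2, and that of Zbtb46 without any 1 array other than WT untreated replicate 1 or 2. Dendritic falls were 1 with the deposited values, 2 without KO LPS replicate 1 and 3 without KO LPS replicate 2 or either WT LPS replicate.

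Calls went both ways among the ligase's own partners. Of 32 genes of the Cullin 3 core and its adaptors, 4 rose and 4 fell, Cul3 among the latter. Over all genes tested 7.87% were called higher and 8.54% lower, and whether the list differs from these shares was not tested. The RING subunit Rbx1 (-0.19, adjusted p = 0.356) and the modifier Nedd8, which overlapped between groups (-0.03, adjusted p = 0.880), were not called. Klhl21, a BTB adaptor, was at -0.69 and -1.37 in WT and 0.56 and 0.69 in KO cells and rose by 1.65 ± 0.23 (SE, adjusted p = 0.00752). Enc1 was at 1.78 and 1.95 in WT and 0.88 and 0.90 in KO cells and fell by 0.98 ± 0.13 (adjusted p = 0.00646). Kctd17 (0.86), Kbtbd7 (0.78) and Klhl6 (0.65) rose, and Rhobtb1 (-1.20) and Bach1 fell. The Klhl6 call was lost without any 1 of the 8 arrays, that of Rhobtb1 without KO LPS replicate 1 or 2 or WT LPS replicate 2, and that of Kctd17 without any 1 array other than WT LPS replicate 1 or 2. That of Kbtbd7 was lost without KO LPS replicate 1 or 2, KO untreated replicate 1 or 2 or WT LPS replicate 1. Klhl6 was not called with median centring. Rises were 1 or 2 without any array other than WT LPS replicate 2, and falls were 1 without KO LPS replicate 2 and 2 without KO LPS replicate 1 or WT LPS replicate 2.

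Calls were denser around Cul3 on chromosome 1. Within 20 Mb of the Cul3 probe 88 of 407 genes were called (21.6%, 37 higher and 51 lower), against 17.7% on the rest of that chromosome and 16.3% on other chromosomes. With a difference over 1 the shares were 12.3%, 7.97% and 7.03%. A run of called falls over 1 lay 4.69 to 4.97 Mb from Cul3, towards higher coordinates. Such neighbouring entries were counted as separate genes, and their independence and cross-hybridisation were not tested. Genes in this interval include the 2 largest falls among named genes well above background in both groups, Dnajb3 at 9.83 Mb and Glrp1 at 10.1 Mb from Cul3. Epha4, an ephrin receptor 2.90 Mb away, was at -1.27 and -0.87 in WT and 2.13 and 1.74 in KO cells and rose by 3.00 ± 0.24 (SE, adjusted p = 0.00186). Ramp1, a receptor activity-modifying protein 12.8 Mb away, was at -0.29 and -0.60 in WT and -2.85 and -2.70 in KO cells and fell by 2.33 ± 0.15 (adjusted p = 0.00120). Dock10, 0.230 Mb away, was at 6.14 and 5.97 in WT and 4.65 and 4.50 in KO cells and fell by 1.47 ± 0.13 (adjusted p = 0.00216). Slc11a1 and Ugt1a6a also lie in the interval, at 5.84 and 9.85 Mb, while Gsta3 lies outside it on the same chromosome. These positions are those of the probes on mm9, and Epha4, Ramp1 and Dock10 were named after their values were seen.

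The genotype effect was set beside that in untreated cells, which shares no arrays with it but shares the estimate of the spread. Untreated, 2.25% of genes tested were called higher and 1.16% lower. Of the calls with LPS, 298 rises and 176 falls were called in the same direction without LPS. Redox genes and the scavenger receptor gene Marco were among them. Gsta3 differed by 5.68 untreated and 6.43 with LPS, Nqo1 by 2.23 and 3.21, Gclm by 2.25 and 2.86, and Marco by 3.99 and 3.27. In the 3 examples that follow, interferon-related genes were lower in KO cells with LPS but not without it. Iigp1 differed by 0.29 untreated and -1.55 with LPS, Cxcl9 by 0.26 and -2.49, and Il15 by 0.03 and -1.87, and in each of these 3 genes the effects differed by limma's test of the difference (adjusted p = 0.0148, 0.00874 and 0.0125). That test called 1251 genes (4.47%), of which 1042 were also called between genotypes with LPS.

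In some genes the direction turned. Cd40 averaged -0.70 in WT and 0.97 in KO cells untreated, a difference of 1.67, against -0.97 with LPS (effects differing by -2.64 ± 0.22, SE, limma adjusted p = 0.0104). Batf3 differed by 1.37 untreated and -0.87 with LPS, and its difference of effects was called. Tnfsf4 and Edn1 were not well above background in untreated WT cells but were so in untreated KO cells, with fitted differences of 3.32 and 3.05 there that are no measured size. Each was lower in KO cells with LPS, and the difference of effects was called for both. Other effects were larger with LPS. Gclc differed by 1.06 untreated and 2.44 with LPS (adjusted p of the difference = 0.0232), and Mvd by -0.09 and 1.83 (adjusted p = 0.0104).

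**Figure D5:**
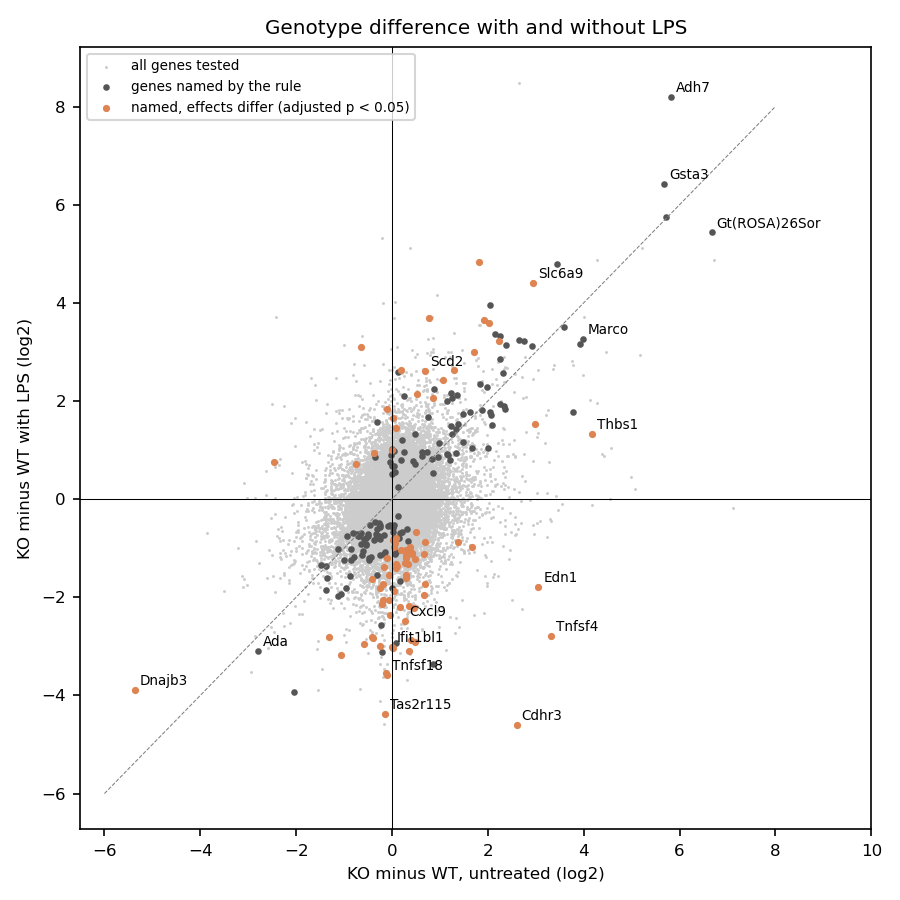
Difference between KO and WT cells with LPS (log2, vertical) against that in untreated cells (log2, horizontal), with all genes tested in light grey and genes named by the rule in dark grey, or orange where the effects with and without LPS differed (limma adjusted p under 0.05). The dashed line marks equal effects; Gsta3 and Adh7 lie near it, while Tnfsf4, Edn1 and Cdhr3 lie to the lower right.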

How the data were processed

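RNA of 8 macrophage samples had been hybridised to 1-colour Agilent arrays, scanned on 1 slide in 1 scan. The scanner files hold intensities that the authors extracted, per the file headers and the submitters' processing notes, using Agilent Feature Extraction (version 10.7.3.1), which subtracts background and marks each spot as outlier, saturated or clear of background. A deposited table by the authors held log2 values of 26670 probes that matched the processed signals (r 0.996 to 1.000 per array) and was used as an alternative. Its values had no scaling between arrays, differing from the log2 processed signals by a median of -0.005 to 0.015 per array.

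Control spots and outlier-flagged spots were left out, spots of a probe averaged, and each array's 75th percentile of log2 processed signal subtracted. A probe was kept if some group had it well above background on its 2 arrays (39943 of 55681) and named through RefSeq accessions, symbols or the file's own name. A gene was read by its probe of highest mean, with its position on mm9 as the files give it. Of 226 genes named by the rule, 43 had another kept probe, none called the other way and 5 with a difference of opposite sign.

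A group-means model of all 8 arrays was fitted with limma 3.58.1 (R 4.3.3, residual degrees of freedom 4, prior 2.28), contrasting KO with WT cells after LPS, with Benjamini-Hochberg adjustment over the 27970 genes tested. Every adjusted p below is from limma. For a gene too dim to measure on all arrays of a group, only a lower bound of its fold is given: the brighter mean over, on each dim array, the array's lowest signal that passed or the gene's own if higher. The fit was tested on simulated data.

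The members and the 47 gene lists (771 genes, 745 tested) were chosen with earlier results of these data known. The rule for names took Cul3, the 20 largest rises and falls among called genes, and from every list its called members, 6 at most. A gene outside it was chosen after its values were seen. A few list members are counted but not reported here by name. Motifs were searched over 250 bases before each RefSeq start (GRCm38.p6). The labels number replicates 1 and 2 in each group without saying what a number shares. Deviations of same-numbered KO and WT arrays after LPS had a correlation of -0.19, so arrays were not paired. The alternatives were other scalings, background corrections, filters, probe rules, moderation, weights and thresholds, a replicate block and the omission of each array.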

Additional observations from a re-analysis of the deposited data

Results flagged for a closer look

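The genotype effect with LPS differed from that in untreated cells, by limma's test of the difference, in 85 of the named genes (adjusted p 0.00845 to 0.0476, SE 0.15 to 0.57). Values in the following sentences are the difference between KO and WT cells with LPS minus that without, on the log2 scale. This test was not repeated without single arrays.

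Negative values are given first, by gene list. Among chemokines the value was -2.75 for Cxcl9, -2.68 for Ccl12, -2.36 for Ccl7 and -2.32 for Ccl17. Among cytokines and their kin it was -4.85 for Edn1, -3.48 for Tnfsf18, -2.62 for Tnfsf10, -1.92 for Il33, -1.90 for Il15 and -1.55 for Il27. Costimulatory and presentation genes gave -6.12 for Tnfsf4, -2.64 for Cd40, -2.42 for Cd86, -1.42 for Cd83, -0.96 for H2-DMb1 and -0.88 for Cd274. Vacuole-directed GTPases gave -2.53 for Gbp4, -1.91 for Tgtp1, -1.88 for Gbp8, -1.84 for Iigp1 and -1.57 for Gbp9. Interferon factors and antiviral genes gave -3.01 for Ifit1bl1, -1.53 for Irf1, -1.49 for Mx2, -1.48 for Irf8, -1.43 for Usp18, -1.41 for Eif2ak2 and -1.34 for Irf2. None of these genes was called lower in untreated KO cells, but genes in this section were chosen for a difference between the effects. The whole MHC class II list had a median of -0.64 untreated, with 1 member called lower, and of -0.61 with LPS.

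For signalling genes and transcription factors the value was -2.24 for Batf3, -1.79 for Nfkbiz, -1.65 for Batf2, -1.51 for Egr1, -1.49 for Tlr3, -1.47 for Atf3, -1.44 for Tnip3, -1.22 for Zfp36 and -1.09 for Rel. Receptors, caspases and complement genes gave -1.57 for Fcgr4, -1.46 for Mertk, -1.44 for Timd4, -1.01 for Ccrl2, -1.23 for Aim2, -0.85 for Casp8, -2.86 for Thbs1 and -1.17 for C3. For Thbs1 and Timd4 KO cells were higher under both conditions, and by less with LPS. The pathway regulators and Cullin 3 partners were at -1.70 for Bach1, -1.21 for Mafk and -1.35 for Enc1, the dendritic marker Bcl11a at -1.54 and the cyclin Ccnd1 at -1.98. Among the largest falls the values were -7.21 for Cdhr3, -4.23 for Tas2r115, -3.45 for Serpina3i, -3.42 for Timd2, -3.38 for Dll1, -3.27 for Serpina3g, -3.05 for Ell3 and -2.73 for Ildr1, and -2.44 for Pou3f1, -2.40 for Clic5, -2.38 for Sypl2, -2.12 for Tcstv3 and -1.49 for Il18rap.

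The positive values follow. Glutathione and detoxification genes gave 3.03 for Gsta1, 2.92 for Gsta2, 1.38 for Gclc, 1.35 for Gstm2, 1.27 for Cbr3 and 0.98 for Nqo1. Lipid, iron and lysosome genes gave 1.93 for Mvd, 1.92 for Scd2, 1.32 for Tfeb and 1.23 for Slc48a1. Transporters and other membrane proteins gave 3.75 for Serinc2, 3.23 for Slc1a2, 1.74 for Tmem119, 1.47 for Slc6a9, 1.47 for Dcstamp and 0.99 for C5ar1. The remaining values were 2.45 for Cxcl5, 1.63 for Klhl21, 1.61 for Nlrc4, 1.56 for Foxq1 and 1.36 for Cebpa, and 1.48 for Dnajb3, which was lower in KO cells under both conditions.

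In 7 genes the effects were called in opposite directions. Cd40 differed by 1.67 untreated and -0.97 with LPS, and Batf3 by 1.37 and -0.87. Cdhr3, Tnfsf4 and Edn1 went the same way as these. The glutamate transporter Slc1a2 differed by -2.46 and 0.77 (the latter 0.20, not called, with the mean of its 2 probes), and the fusion protein gene Dcstamp by -0.76 and 0.71. For Cdhr3, Tnfsf4, Edn1, Tas2r115, Timd2, Ildr1, Il33, Timd4, Dnajb3, Foxq1, Gsta2 and Gsta1 at least 1 of the 4 groups had no array above background, so the size printed is a fitted value and not a measured one.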

How the results depend on the processing

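With 2 arrays a group, counts moved more than directions, and a gene not called may still differ. Fitting the 4 LPS arrays alone gave 792 calls (371 higher, 421 lower), of which 756 were among the 4592. The replicate block gave 2814 (1409 and 1405) with 8 arrays and 427 (204 and 223) with 4, where the replicate number is also the slide column. Crossed replicate numbers as a block on the 4 arrays, chosen after seeing the data, gave 0 calls (0 higher, 0 lower) by limma, with 8169 genes at an unadjusted p under 0.05. Array weights gave 2685 (1397 and 1288) and no filter on dim probes 2861 (1410 and 1451). An adjusted p under 0.01 left 1319 (686 and 633), and a difference over 1 left 1999 (941 and 1058). Leaving out 1 array gave 1495 to 4224 calls, 777 to 2076 higher and 718 to 2148 lower, lowest in each case without KO LPS replicate 2.

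The split of rises and falls depended on scaling: 3685 and 748 with the deposited values as given, 3821 and 1047 with these scaled to their 75th percentile, and 2297 and 3791 with normexp. The median over all genes was -0.08, against 0.25, 0.19 and -0.17 in these 3. Deposited values cover fewer genes and, as given, were not scaled between arrays. The cause of these shifts was not tested.

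Cul3 was lower in every fit run but was no longer called at -0.52 in the fit of 4 arrays, with array weights, with no filter and with the replicate block (8 or 4 arrays), at -0.48 with median centring, at -0.17 with deposited values and -0.23 with these scaled. Leaving out 1 array gave -0.55 to -0.49. Of 223 called named genes, 121 kept their call and direction without each array and 70 in every planned setting that gave a value. The direction turned, uncalled, with normexp for Retnlg (-0.015) and Klrb1c (-0.10). The replicate block ended the calls of 41 named genes with 8 arrays and of 144 with 4. Dim probes limit what is measured: 169 called rises had no WT array, and 61 called falls no KO array, well above background.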

Other observations

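Cell cycle genes went both ways in KO cells after LPS, with 5 of 31 higher and 5 lower. Over all genes tested 7.87% were called higher and 8.54% lower. Ccnd1, the cyclin of G1 entry, was at 2.96 and 2.84 in WT and 0.67 and 1.02 in KO cells and fell by 2.05 ± 0.16 (SE, n = 2 per group, limma adjusted p = 0.00162). Ccnd2 (-0.90) and the mitotic genes Kif4 (-1.35) and Ccnb2 (-1.02) fell, as did thymidylate synthase, Tyms (-1.14). In contrast Mcm3, a subunit of the replicative helicase, was at 2.11 and 2.41 in WT and 3.53 and 3.42 in KO cells and rose by 1.21 ± 0.15 (adjusted p = 0.00565), and Cdk1 (0.95), Mcm7 (0.81), Rrm2 (0.74) and Mcm2 (0.50) rose. Ccnd1 and Mcm3 were called without each array in turn, and without KO LPS replicates 1 and 2 in turn the list had 1 and 1 rises and 2 and 1 falls.

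Of 19 genes of the ATF4 and unfolded protein response 5 fell and 0 rose (8 and 0 at an unadjusted p under 0.05), namely Chac1 (-1.61), Trib3 (-1.56), asparagine synthetase Asns (-1.07), Mthfd2 (-0.71) and CHOP, Ddit3 (-0.69). Without KO LPS replicate 1 or 2 the fall of Chac1 was the only one called. Among 13 heat shock genes Hspa1a was at 3.46 and 3.47 in WT and 2.10 and 2.11 in KO cells and fell by 1.36 ± 0.12 (adjusted p = 0.00201). Of 12 BCL2 family genes Pmaip1 (NOXA, -1.08) and Bcl2l11 (BIM, -0.81) fell, and Bmf (0.97) and Bad (0.55) rose. All of these promote cell death. The Bcl2l11 and Bad calls were lost without KO LPS replicate 1 or 2 or KO untreated replicate 1 or 2. Bcl2l11 was also not called with the authors' deposited values.

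Of 18 complement and coagulation genes 2 rose and 3 fell. F13a1, the A subunit of factor XIII, was at 1.73 and 1.60 in WT and 3.32 and 3.45 in KO cells and rose by 1.72 ± 0.14 (adjusted p = 0.00191), and thrombospondin 1 (Thbs1) rose by 1.32 ± 0.18. The urokinase gene Plau (-1.24), its receptor gene Plaur (-0.70) and C3 (-0.66) fell, the last 2 calls being lost under other scalings and without most single arrays. Of 15 metalloproteinase genes 3 rose and 1 fell, with Mmp9, at -2.84 and -3.08 in WT and -0.68 and -0.94 in KO cells, rising by 2.15 ± 0.18 (adjusted p = 0.00200), Mmp3 by 1.51 ± 0.24 and the neutrophil collagenase Mmp8 by 1.05 ± 0.21, while Mmp25 (-0.94) was lower. Mmp8 and Mmp9 are also on the neutrophil list, whose summed signal was higher in KO cells, and the part of that list in these differences was not tested. Without KO LPS replicate 1 the rises of this list were 1.

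Genes of alternative activation had no common direction, with 3 of 13 higher and 4 lower. Arg1 (2.57), Ccl24 (0.95) and the mannose receptor Mrc1 (0.80) rose, and Ccl17 (-2.36), Irf4 (-1.80), Mgl2 (-0.75) and Il4ra (-0.67) fell. The calls of Mrc1, Ccl24, Mgl2 and Il4ra were lost without KO LPS replicate 1. Without that array 1 rise and 2 falls of the list were called, and with the deposited values 5 rises and 0 falls. Of 10 osteoclast genes 3 rose and 2 fell, the calcitonin receptor gene Calcr (1.52) and Dcstamp (0.71) rising while Ctsk (-1.85) and Atp6v0d2 (-1.98) fell. The Calcr call was lost without any 1 array other than WT untreated replicate 1 or 2. That of Dcstamp was lost without KO LPS replicate 1 or 2, and those of Ctsk and Atp6v0d2 were kept without each array. In the remaining marker lists, 1 was called higher and 2 lower of 12 stromal and endothelial genes, and 2 higher of 7 mast cell genes. Of 6 erythroid and megakaryocyte genes 1 was called higher, and of 11 T and natural killer genes 1 higher and 2 lower. Of 6 B cell genes 1 was called lower. Over all genes tested 16.4% were called, and whether these lists differ from that share was not tested. Gata2, a factor of mast cells and progenitors, was at -2.69 and -3.52 in WT and -1.17 and -0.82 in KO cells and rose by 2.11 ± 0.29 (adjusted p = 0.00778), and Kdr, a VEGF receptor gene, was at 4.72 and 5.08 in WT and 3.64 and 3.66 in KO cells and fell by 1.25 ± 0.15 (adjusted p = 0.00505).

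Long intergenic noncoding RNA probes were called less often than the 16.4% of all genes tested. Of 4047 tested, 403 were called (9.96%), 134 higher and 269 lower. Their levels were not compared with those of other genes, and the difference between the shares was not tested.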
